A study of Mus musculus with 8 samples.

Results

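The exit of mouse embryonic stem cells from the naive state was measured by comparing in vitro epiblast cells (EpiC) with the embryonic stem cells (ESC) they were made from. All libraries of these 2 groups were taken by their labels, 4 of the 8 libraries of the study, and 21850 of the 48440 listed genes had enough counts to be tested. The EpiC group held 2 libraries of cells that had been plated at 400000 per plate, kept for 24 h in the ESC condition, and collected about 56 h after LIF and both inhibitors were taken away. The ESC group held 2 libraries of cells grown in Knockout DMEM with 15% FBS, LIF and the inhibitors PD0325901, which blocks MEK, and CHIR99021, which blocks GSK3. The labels give 15% serum for the EpiC group too. The series, which concerns microRNA suppression in vertebrate oocytes, also holds germinal vesicle and metaphase II oocytes, and these were used here for the estimate of spread only. The labels name neither a transgene nor the ESC line, and they do not say whether the replicates came from separate cultures. Each p below therefore measures only the spread between these libraries, which may be technical.

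Naive pluripotency is the state of the preimplantation epiblast, held in culture by LIF signalling through STAT3 and by blocking MEK and GSK3. When these supports are removed, FGF and ERK signalling acts unopposed, the naive transcription factors are shut down, and cells pass into a formative state close to the early postimplantation epiblast, from which germ layers and germ cells can arise. General pluripotency factors such as Pou5f1 (OCT4) are kept through this change, and de novo DNA methyltransferases and formative factors such as Otx2 and Pou3f1 come on. In such bulk libraries, fewer cells of a type and less RNA per cell cannot be told apart.

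The libraries differed by replicate number in both groups. Total estimated counts were 47463546 and 116034226 in EpiC, against 50216249 and 166400271 in ESC, replicate 1 before replicate 2 here and throughout. Gm42418, an annotated gene that overlaps ribosomal RNA sequence, took 0.0255% and 22.7% of the counts in EpiC and 0.0306% and 14.7% in ESC. It was left out of all scaling. Protein-coding transcripts held 76.4% and 63.1% of the TPM (a level per length of transcript, scaled to the same total in each library) in EpiC, and 75.7% and 67.4% in ESC. Mitochondrial transcripts took 1.93% and 3.64% of the counts in EpiC, and 2.11% and 3.71% in ESC. The part of these differences in the results was not tested. A fit with the replicate number as a block is given among the alternatives at the end. Changes within each replicate number are given for the calls, for some lists and for Fgf5.

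The exit was a broad and nearly balanced change of expression. With edgeR's quasi-likelihood test, 1387 genes passed a Benjamini-Hochberg adjusted p of 0.05, which is 6.35% of the genes tested, and these are named as called below. Of these, 687 were higher in EpiC (3.14%) and 700 lower (3.2%). Among protein-coding genes, 7.92% were called in either direction. The counts of called members in the gene lists below are to be read beside these shares. The changes were large: the median log2 fold change was 3.50 among the genes called higher and −3.40 among those called lower, against 0.04 over all genes tested. At least 8-fold changes made up 442 of the higher and 429 of the lower genes, and the smallest called changes were 1.42 and −1.43 on the log2 scale. In all 1387 the TPM of the groups did not overlap, which held for 46.3% of all genes tested. All 1387 also changed in the same direction within replicate 1 and within replicate 2, as 76.6% of all genes tested did. The 4 libraries limited the calls: 335 of the 1387, 126 higher and 209 lower, were called whichever library was left out, and the count of calls lay between 405 (without ESC replicate 1) and 856 (without EpiC replicate 2). With the EpiC and ESC libraries alone, which leaves 2 residual degrees of freedom, 727 of the 1387 were called.

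**Figure D1:**
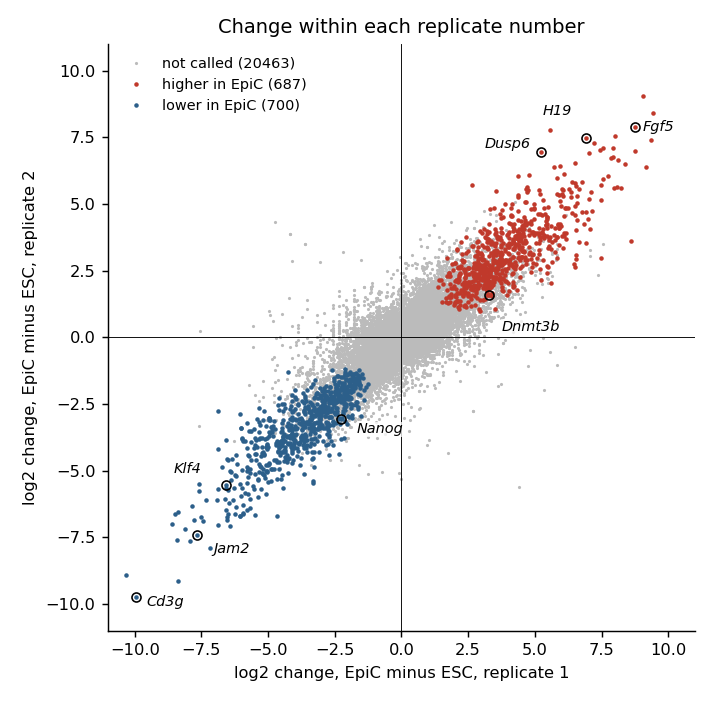
Log2 change of EpiC minus ESC in replicate 1 (horizontal axis) and replicate 2 (vertical axis), one point per tested gene, with the 687 genes called higher in EpiC in red, the 700 called lower in blue and the others in grey. All called genes lie at the lower left or the upper right, where both replicates changed in the same direction, and the named genes are circled.

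The labels were checked first on genes that define each state. Formative markers were high in EpiC. Fgf5, the growth factor that marks the early postimplantation epiblast, measured 55.3 and 22.8 TPM in EpiC, against 0.1 and 0.0595 TPM in ESC. Pou3f1, a POU factor of the same stage, measured 32.7 and 42.8 TPM in EpiC and 1.48 and 1.08 TPM in ESC. Naive markers were high in ESC. Esrrb, a nuclear receptor that sustains self-renewal, measured 4.71 and 4.89 TPM in EpiC, against 294.2 and 251.4 TPM in ESC. Zfp42 (Rex1), a zinc finger protein used as a reporter of the naive state, measured 31.9 and 29.8 TPM in EpiC, against 468 and 336.1 TPM in ESC. The general factor Pou5f1 was among the abundant transcripts in all 4 libraries, with 1117 and 832.1 TPM in EpiC and 1421 and 1034.5 TPM in ESC. The libraries of both groups therefore carried the markers of their labels.

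The naive network fell nearly as a whole. Of 30 naive genes, all tested, 24 fell, 0 rose and 6 were not called, with a median log2 change of −4.0 beside 0.04 over all genes. Their summed level was 982.1 and 771.6 TPM in EpiC, against 6595 and 5780 TPM in ESC. Of the 24, 17 were called whichever library was left out.

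The transcription factors at the centre of this network fell by very different amounts. Tfcp2l1, a factor downstream of LIF and GSK3 inhibition (GRCm38 chromosome 1, 118627945 to 118685168), measured 2.56 and 2.65 TPM in EpiC, against 192.6 and 145.3 TPM in ESC, with a log2 change of −6.16 ± 0.48 (SE; adjusted p = 0.000598). Esrrb (chromosome 12, 86361117 to 86521628) had −5.84 ± 0.46 (adjusted p = 0.00062). Klf4, a Krüppel-like factor induced by STAT3, measured 1.62 and 2.92 TPM in EpiC and 150.5 and 143.1 TPM in ESC, with a log2 change of −6.04 ± 0.53 (adjusted p = 0.000789). These 3 were each far lower in both EpiC libraries than in either ESC library. Prdm14, which represses FGF signalling and de novo methylation in naive cells, measured 0.282 and 0.152 TPM in EpiC, against 24.2 and 23.8 TPM in ESC (−6.81 ± 0.68, adjusted p = 0.00112). Tbx3 had 1.99 and 6.89 TPM in EpiC and 69.3 and 96 TPM in ESC, and Nr5a2, a nuclear receptor that activates Pou5f1, had 1.57 and 0.687 TPM in EpiC and 46.6 and 28.6 TPM in ESC. Nr0b1 (DAX1), an orphan nuclear receptor, measured 2.5 and 0.964 TPM in EpiC, against 71.8 and 42.9 TPM in ESC. Zfp42 changed less than these, with −3.74 ± 0.49. Both EpiC libraries lay below both ESC libraries for each, and all kept their calls whichever library was left out.

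Nanog and Klf2 fell with calls that did not hold whichever library was left out. With 1 library left out, the log2 fold change lay between −3.21 and −2.12 for Nanog and between −4.54 and −4.07 for Klf2. Nanog (chromosome 6, 122707489 to 122714633), the homeodomain factor that makes self-renewal less dependent on LIF, measured 208.9 and 109.8 TPM in EpiC, against 953.8 and 921.6 TPM in ESC. Its log2 fold change was −2.56 ± 0.53 (adjusted p = 0.0189), and both EpiC libraries still held over 100 TPM. The call was lost without EpiC replicate 2 or ESC replicate 1, with an adjusted p of up to 0.0851, and with the EpiC and ESC libraries alone. Klf2, a factor stabilised by MEK inhibition, measured 8.46 and 9.12 TPM in EpiC and 182.1 and 159.8 TPM in ESC (−4.31 ± 0.81, adjusted p = 0.0124), and lost its call without either EpiC library, with an adjusted p of up to 0.083.

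The other naive genes that fell included surface proteins and enzymes. Jam2, a junctional adhesion molecule (chromosome 16, 84774123 to 84825928), measured 1.84 and 2.17 TPM in EpiC, against 297.9 and 319.3 TPM in ESC, and had the smallest adjusted p of the named genes, 0.00026, with a log2 change of −7.54 ± 0.46. Tdh, the threonine dehydrogenase on which mouse stem cells depend, measured 18.4 and 35.2 TPM in EpiC and 493.1 and 354.1 TPM in ESC. Mras, a RAS-related GTPase, measured 0.613 and 1.16 TPM in EpiC and 118.6 and 101 TPM in ESC. Fbxo15, an early reporter of the stem cell state, had 18.5 and 22.6 TPM in EpiC, against 337.3 and 376.7 TPM in ESC. Spp1 (osteopontin) had 25.2 and 12.3 TPM in EpiC and 923.1 and 662.4 TPM in ESC, with a call lost without EpiC replicate 2 or ESC replicate 1, at an adjusted p of up to 0.0759. Members that were not called included Klf5 (log2 fold change −1.56, adjusted p = 0.252), and Fgf4, the growth factor that drives exit, with 80.5 and 48.2 TPM in EpiC and 168 and 141.1 TPM in ESC (−1.28, adjusted p = 0.171). Dppa3 (Stella) was higher in both EpiC libraries, with 18.1 and 17.3 TPM, than in ESC, with 11 and 7.27 TPM, but was not called (0.91, adjusted p = 0.284).

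**Figure D2:**
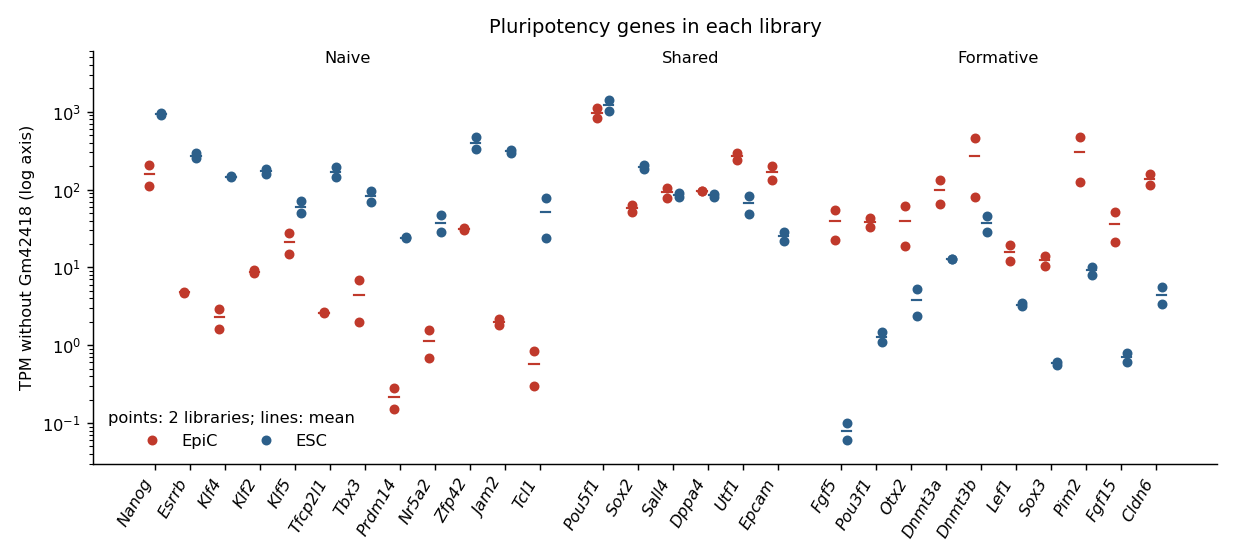
Level of naive, general and formative pluripotency genes in each library, as TPM on a log axis, with EpiC left of ESC, one point per library and a line at the mean of 2 libraries. Esrrb and Klf4 lie below 5 TPM in EpiC and above 140 TPM in ESC, Pou5f1 lies between 832.1 and 1421 TPM in all libraries, and Fgf5 lies above 20 TPM in EpiC and at or below 0.1 TPM in ESC.

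The list of general pluripotency genes did not move as one. Of 20, 3 rose, 1 fell and 16 were not called, with a median log2 change of −0.11. Pou5f1 (chromosome 17, 35506018 to 35510772) had a log2 change of −0.34 ± 0.48 (adjusted p = 0.931), and its value turned to 0.14 without ESC replicate 1. Sox2, the partner of OCT4, measured 63.2 and 51.5 TPM in EpiC and 207.8 and 181.6 TPM in ESC (−1.78 ± 0.40, adjusted p = 0.0274). The call of Sox2 was lost when any 1 library was left out, with an adjusted p of up to 0.232, and with the EpiC and ESC libraries alone. Utf1, a chromatin factor of the epiblast, was higher in both EpiC libraries at 299 and 238 TPM than in ESC at 83.7 and 49.1 TPM, just outside the threshold (1.98, adjusted p = 0.0529). The members that rose were Lin28a, Epcam and Esrp1, described below with their own groups. Lin28a and Esrp1 were far lower in ESC, so the word general does not describe every member of this list.

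Formative genes rose. Of 30 listed, 29 were tested, of which 17 rose, 0 fell and 12 were not called, with a median log2 change of 2.90. Their summed level was 2586 and 1413 TPM in EpiC and 892.8 and 682.9 TPM in ESC. All 17 were higher in both EpiC libraries, but 7 of them were called whichever library was left out.

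Growth factors and transcription factors led this group. Fgf5 had a log2 change of 8.83 ± 1.05 (adjusted p = 0.00194), the largest of the list, and changed by 8.74 within replicate 1 and 7.88 within replicate 2. Fgf15, an endocrine FGF, measured 51.9 and 21.3 TPM in EpiC, against 0.788 and 0.612 TPM in ESC. Pou3f1 (chromosome 4, 124656807 to 124660655) had a log2 change of 4.84 ± 0.55 (adjusted p = 0.00229). Grhl2, a pioneer factor of epithelial enhancers, measured 25.3 and 17.2 TPM in EpiC and 1.38 and 1.54 TPM in ESC (4.05 ± 0.58, adjusted p = 0.00371). Pim2, a serine/threonine kinase, reached 475.7 and 124.3 TPM in EpiC, against 8.04 and 10.2 TPM in ESC (5.06 ± 0.70, adjusted p = 0.00325). In each of these genes both EpiC libraries stood above both ESC libraries, and EpiC replicate 1 was higher than EpiC replicate 2 in all but Pou3f1. Sox3, a SOXB1 factor, measured 14.2 and 10.4 TPM in EpiC and 0.557 and 0.615 TPM in ESC, and the related SOXC factor Sox11 measured 10.3 and 10.5 TPM in EpiC and 1.02 and 1.08 TPM in ESC. The calls of Sox3, Sox11 and Sall2 were lost without ESC replicate 1, at adjusted p-values of 0.054, 0.057 and 0.0522.

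Several formative genes of wide use as markers were called on less firm ground. Otx2, the homeodomain factor that directs OCT4 to formative enhancers, measured 60.7 and 18.8 TPM in EpiC and 5.33 and 2.38 TPM in ESC (3.36 ± 0.79, adjusted p = 0.0437). Fgf8, a growth factor of the gastrulating epiblast, measured 40.2 and 3.95 TPM in EpiC and 0.177 and 0.4 TPM in ESC (5.98 ± 1.22, adjusted p = 0.0172). In both genes EpiC replicate 1 was several-fold above EpiC replicate 2, and both calls were lost without EpiC replicate 1, ESC replicate 1 or ESC replicate 2, with an adjusted p of up to 0.237 for Otx2 and 0.148 for Fgf8. Both were also lost with the EpiC and ESC libraries alone, Otx2 with the default TMM reference and Fgf8 with limma on log2(TPM + 1). Etv4, an ETS factor, had a log2 change of 2.40 and was no longer called without EpiC replicate 2 or either ESC library, with an adjusted p of up to 0.142. Lef1, a transcription factor of the WNT pathway, had 19.2 and 12.1 TPM in EpiC and 3.48 and 3.16 TPM in ESC and was not called (1.99, adjusted p = 0.0903).

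The DNA sequence just before the start of a formative and of a naive gene is shown to illustrate promoters with many and with few CG pairs. The pair was chosen after the values were seen and does not stand for its groups: over the same 250 bases the naive genes Klf4 and Tfcp2l1 held 32 and 16 CG pairs, and Lin28a, which rose, held 7. Both sequences shown are 250 bases from RefSeq on GRCm38.p6, plus strand, 5′ to 3′, with each CG pair in capitals. Fgf5 lies at chr5:98253934-98254183 with 24 CG pairs, and Nanog at chr6:122707239-122707488 with 3.

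Fgf5: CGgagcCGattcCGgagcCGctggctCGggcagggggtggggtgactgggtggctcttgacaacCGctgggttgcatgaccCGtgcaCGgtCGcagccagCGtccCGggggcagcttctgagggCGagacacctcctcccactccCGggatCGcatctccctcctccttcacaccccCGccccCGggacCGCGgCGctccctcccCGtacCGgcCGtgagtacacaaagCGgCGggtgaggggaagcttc

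Nanog: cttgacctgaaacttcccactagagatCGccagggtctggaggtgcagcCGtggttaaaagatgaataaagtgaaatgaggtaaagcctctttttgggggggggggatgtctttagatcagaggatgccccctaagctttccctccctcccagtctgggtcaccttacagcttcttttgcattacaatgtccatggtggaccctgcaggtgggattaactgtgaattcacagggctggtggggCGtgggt

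RefSeq promoters, 300 bases from 250 before to 50 after the annotated start, were matched to 13000 of the tested genes, among them 456 of the genes called higher and 479 of those called lower. Where a gene had several promoters, the promoter with the most CG pairs was used, and a motif in any of them counted. The number of promoters per gene was not taken into account. The median was 19 CG pairs among the genes higher in EpiC (quartiles 10 and 29). It was 13 among the genes lower in EpiC (5 and 24) and 20 over all matched genes (11 and 29). At most 10 CG pairs were found for 26.3% of the higher, 43% of the lower and 24.7% of all matched genes. A larger share of the genes that fell thus had few CG pairs than of all matched genes, without a test of this difference. Motifs of factors of this transition were found at similar shares in all sets, counted on both strands. The letters AAGGTCA, as bound by ESRRB, were found for 3.29% of the higher, 4.59% of the lower and 4.25% of all matched genes. The GGGTGTG letters bound by Krüppel-like factors lay in 11.2%, 11.1% and 10.5% of the same sets, the OTX site TAATCC in 7.46%, 8.56% and 7.37%, and the TCF site CTTTGAA in 6.36%, 5.01% and 4.55%.

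Some transcripts that ERK induces were higher in EpiC. The MEK inhibitor had been withdrawn together with LIF and the GSK3 inhibitor, and the effects of these withdrawals cannot be told apart here. Of 22 ERK targets and feedback genes, 7 rose and 0 fell, with a median log2 change of 1.32. Dusp6 (chromosome 10, 99263231 to 99267489), the phosphatase that ERK induces to limit itself, measured 107.7 and 208 TPM in EpiC, against 2.68 and 1.71 TPM in ESC, with a log2 change of 6.11 ± 0.83 (adjusted p = 0.00315). Egr1, an immediate early zinc finger factor, measured 13.1 and 5.12 TPM in EpiC and 0.175 and 0.116 TPM in ESC (5.98 ± 0.90, adjusted p = 0.00454). Dusp6 and Egr1 were the members called whichever library was left out. Spry4, a Sprouty feedback inhibitor, measured 13.2 and 14.5 TPM in EpiC and 2.01 and 0.278 TPM in ESC (3.50 ± 0.83, adjusted p = 0.0342). Its level was even in EpiC and differed several-fold between the ESC libraries, and the call was lost without either EpiC library, with an adjusted p of up to 0.0965, and with the EpiC and ESC libraries alone. Errfi1, an inhibitor of the EGF receptor, measured 30.4 and 29.5 TPM in EpiC and 7.1 and 8.76 TPM in ESC (1.92 ± 0.36), and Dusp4 had a log2 change of 3.70; both calls were lost without either ESC library, at an adjusted p of up to 0.121 and 0.0875. Fosl1, an AP-1 subunit, had 4.79 and was no longer called without EpiC replicate 2 or ESC replicate 1, at up to 0.14, and with the EpiC and ESC libraries alone. Myc measured 74.9 and 81.9 TPM in EpiC and 7.01 and 3.42 TPM in ESC, with a log2 change of 3.82, but was not called (adjusted p = 0.105).

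Of 28 genes of the FGF pathway, 4 rose and 1 fell, with a median log2 change of 0.29. The ligands that rose were Fgf5, Fgf8 and Fgf15, given above, and the ligand that fell was Fgf10 (−4.97 ± 0.63, adjusted p = 0.00259), at 0.169 and 0.101 TPM in EpiC and 3.55 and 3.57 TPM in ESC. Among the receptors, Fgfr2 rose to 19.2 and 21.7 TPM in EpiC, against 2.17 and 2.46 TPM in ESC, with a log2 change of 3.23 ± 0.41 (adjusted p = 0.0026). The receptor Fgfr3 had 1.93 and 1.47 TPM in EpiC and 0.336 and 0.458 TPM in ESC and was not called (adjusted p = 0.274).

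Transcripts of the LIF receptor, of STAT3 and of some of their targets fell. Of 23 genes, 0 rose and 8 fell, with a median log2 change of −0.67. Lifr, the LIF receptor, measured 2.26 and 1.8 TPM in EpiC, against 13.7 and 14.9 TPM in ESC (−3.12 ± 0.47, adjusted p = 0.00475). Stat3, the transcription factor that carries the signal, measured 6.69 and 9.21 TPM in EpiC and 45 and 58 TPM in ESC (−2.98 ± 0.40, adjusted p = 0.003). Both were several-fold lower in each EpiC library and were called whichever library was left out. Socs3, the feedback inhibitor that STAT3 induces, measured 3.75 and 4.73 TPM in EpiC and 66.8 and 44.4 TPM in ESC (−3.79 ± 0.67, adjusted p = 0.00945), and was no longer called without EpiC replicate 1 or ESC replicate 1, at up to 0.0622. Il6st (gp130), the shared signalling receptor, had −1.66 ± 0.43 and an adjusted p of 0.0477, and was no longer called without EpiC replicate 1, EpiC replicate 2 or ESC replicate 1, at an adjusted p of up to 0.376. The call of Il6st was also lost under 6 of the other alternatives: RLE factors, the default TMM reference, the transcript length offset, the filter over 8 libraries, the EpiC and ESC libraries alone, and limma on log2(TPM + 1). The receptor and transducer transcripts were themselves lower in the cells from which LIF and both inhibitors had been withdrawn.

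**Figure D3:**
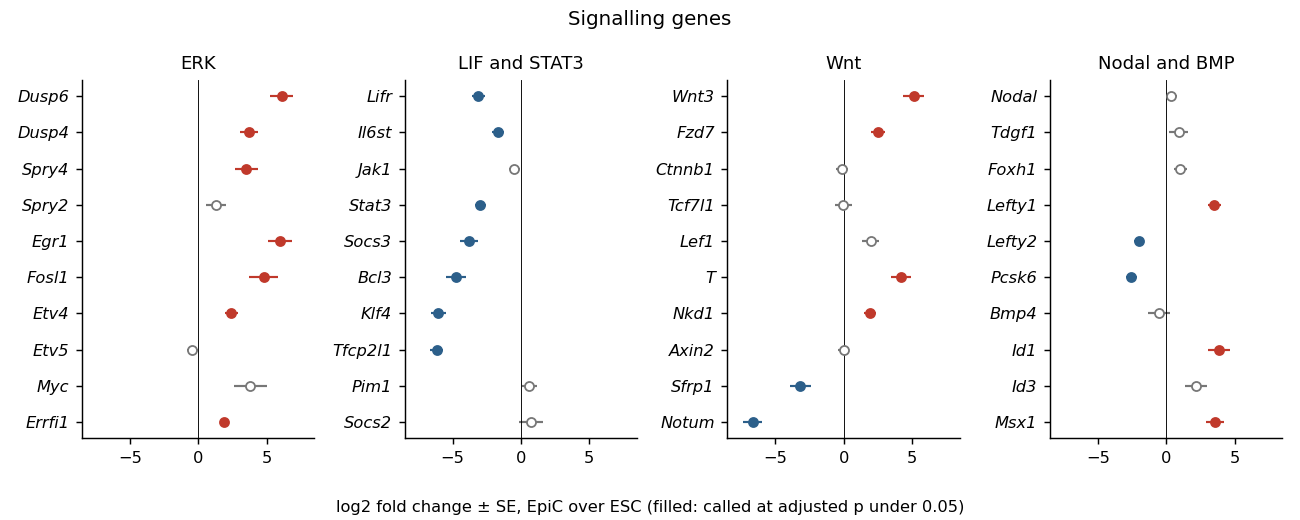
Log2 fold change of EpiC over ESC (horizontal axis) with its SE for genes of the ERK, LIF and STAT3, WNT, and Nodal and BMP pathways, filled in red for genes called higher in EpiC, in blue for genes called lower, and open where not called. Dusp6 lies at 6.11 and Stat3 at −2.98, Axin2 lies at 0.00, and Lefty1 and Lefty2 lie on opposite sides of 0.

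Removing the GSK3 inhibitor takes away a stimulus of WNT signalling, and the WNT list moved in both directions. Of 35 genes, 7 rose and 3 fell, with a median log2 change of 0.46. Axin2, the feedback gene most often read as a WNT reporter, measured 11.2 and 13.4 TPM in EpiC and 11.6 and 11.4 TPM in ESC, with a log2 change of 0.00 (adjusted p = 1) whose sign turned under 5 of the alternatives. Notum, the secreted enzyme that inactivates WNT ligands and is itself a WNT target, fell to 1.26 and 0.684 TPM in EpiC, against 92.6 and 55.1 TPM in ESC (−6.65 ± 0.70, adjusted p = 0.00176). Cdx1, a further WNT target, had 0.871 and 1.26 TPM in EpiC and 13.3 and 5.21 TPM in ESC (−3.19 ± 0.83, adjusted p = 0.05), and lost its call without either EpiC library or ESC replicate 1, at up to 0.45, with Gm42418 kept in scaling, and with the EpiC and ESC libraries alone. Wnt3, the ligand that starts gastrulation, measured 9.12 and 15.6 TPM in EpiC, against 0.182 and 0.532 TPM in ESC (5.12 ± 0.77, adjusted p = 0.00452). The cell cycle gene Ccnd2 measured 8.05 and 18.8 TPM in EpiC and 0.25 and 0.508 TPM in ESC (5.41 ± 0.63, adjusted p = 0.0018). Notum, Wnt3 and Ccnd2 were called whichever library was left out. Sfrp1, a secreted WNT antagonist, fell with −3.17, a call lost without EpiC replicate 2 or ESC replicate 1 at up to 0.253, and T (Brachyury) rose with 4.20, a call lost without either ESC library at up to 0.0799. The receptor Fzd7 rose with 2.52, lost without EpiC replicate 1 or ESC replicate 2 at up to 0.127, and the calls of Wnt4 (3.67), Nkd1 (1.92) and Nkd2 (2.79) were lost without any 1 library, at up to 0.27. With the EpiC and ESC libraries alone, Sfrp1, Fzd7, Wnt4 and Nkd1 were not called.

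Within the Nodal pathway the paired antagonists Lefty1 and Lefty2 moved in opposite directions. Of 24 genes, 23 were tested, of which 1 rose and 2 fell, with a median log2 change of 0.24. Over all genes tested, 3.14% were called higher and 3.2% lower. Lefty1 (chromosome 1, 180935022 to 180938400) measured 259.1 and 501 TPM in EpiC, against 22.3 and 43.7 TPM in ESC, with a log2 change of 3.51 ± 0.45 (adjusted p = 0.00269). Lefty2 measured 27.5 and 32.6 TPM in EpiC and 105.5 and 108.3 TPM in ESC (−1.98 ± 0.39, adjusted p = 0.0176). Neither gene's groups overlapped. The call of Lefty1 held whichever library was left out, and that of Lefty2 was lost without any 1 library, at up to 0.146. These related genes lie close together in the genome, so some reads may have been split between them. Nodal itself, the ligand, had a log2 change of 0.38 and was not called. Pcsk6, a convertase that cuts the Nodal precursor, fell with −2.54, a call lost without EpiC replicate 2 or ESC replicate 1 at up to 0.0762.

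The BMP list had 18 genes, of which 2 rose and 0 fell, beside 3.14% higher and 3.2% lower over all genes. Its median log2 change was 0.23. Id1, a helix-loop-helix inhibitor induced by BMP, measured 100.2 and 178.7 TPM in EpiC and 6.95 and 12.5 TPM in ESC (3.85 ± 0.80, adjusted p = 0.0183). Msx1, a homeobox gene also induced by BMP, measured 6 and 8.27 TPM in EpiC and 0.473 and 0.722 TPM in ESC (3.57 ± 0.63, adjusted p = 0.00964). Both calls were lost without either ESC library, that of Id1 also without EpiC replicate 2, at up to 0.141 and 0.122. In the list of Notch, Hedgehog and YAP genes, 4 of 26 rose and 2 fell, with a median of 0.47. Tead4, the DNA-binding partner of YAP, fell to 2.75 and 2.72 TPM in EpiC, against 38.6 and 24.6 TPM in ESC (−3.60 ± 0.54, adjusted p = 0.00446), and the Notch ligand Dll1 rose to 6.13 and 29.8 TPM in EpiC, against 0.129 and 0.364 TPM in ESC (6.37 ± 1.19, adjusted p = 0.0118). Without ESC replicate 1 these calls were lost, at 0.0572 and 0.0873.

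Keratins, claudins and other epithelial genes were among those that rose. Of 28 genes of epithelial state and its loss, 7 rose, 3 fell and 18 were not called, with a median log2 change of 0.80. Krt18, a keratin of simple epithelia, measured 143.4 and 301.5 TPM in EpiC, against 4.9 and 4.58 TPM in ESC (5.51 ± 0.68, adjusted p = 0.00225), and its partner Krt8 measured 137.1 and 331.2 TPM in EpiC and 11.1 and 7.71 TPM in ESC (4.58 ± 0.78). Both keratins were higher in EpiC replicate 2 than in EpiC replicate 1, and far above either ESC library in both. Cldn7, a tight junction claudin, measured 92.2 and 44.4 TPM in EpiC and 1.98 and 1.66 TPM in ESC (5.80 ± 0.68), and Cldn6 measured 159.3 and 114.1 TPM in EpiC and 3.42 and 5.52 TPM in ESC (4.96 ± 0.52). Esrp1, which controls epithelial splicing, measured 56.8 and 26.9 TPM in EpiC and 0.683 and 0.286 TPM in ESC, with a log2 change of 6.60 ± 0.69 (adjusted p = 0.00133). The adhesion molecule Epcam had 198.4 and 134.4 TPM in EpiC and 28.6 and 22 TPM in ESC (2.69 ± 0.46), and both it and Krt8 lost their calls without ESC replicate 2, at 0.0735 and 0.0535. Fn1, fibronectin, fell to 37.8 and 34.3 TPM in EpiC, against 461.2 and 433 TPM in ESC (−3.75 ± 0.52, adjusted p = 0.0033). Zeb1, a repressor of epithelial genes, fell with −2.62, a call lost without EpiC replicate 1 or ESC replicate 1 at up to 0.0824, and the laminin chain Lamc1 with −2.28, lost without EpiC replicate 2 or ESC replicate 1 at up to 0.21 and with the EpiC and ESC libraries alone. Of the laminin chains in the extraembryonic list, Lama1 fell with −4.02 ± 0.61 (adjusted p = 0.00471) and Lamb1 rose with 2.56 ± 0.47, a call lost without ESC replicate 1 at 0.0976.

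Markers of other cell types were looked at beside these changes, and their part in the results was not tested. Of 24 germ layer genes, 20 were tested, 3 rose and 1 fell, and their summed level was 128.5 and 139.5 TPM in EpiC and 139.1 and 97.3 TPM in ESC. T, of the primitive streak, measured 9.11 and 10.1 TPM in EpiC and 0.575 and 0.404 TPM in ESC, while Mesp1, of early mesoderm, stayed at or below 0.0581 TPM in all 4 libraries and Foxa2, of endoderm, at or below 0.461 TPM. Hand1 and Pax6 rose with log2 fold changes of 4.89 and 2.38, and Kdr fell with −3.83; none of these 4 calls held whichever library was left out, with an adjusted p of up to 0.215, and Pax6 and Kdr were not called with the EpiC and ESC libraries alone. Of 25 extraembryonic genes, 22 were tested, 4 rose and 1 fell, with summed levels of 439.1 and 729.6 TPM in EpiC and 490 and 430.8 TPM in ESC. The endoderm gene Gata6 stayed at or below 0.336 TPM, Ttr and Afp at or below 0.0514 TPM, and the trophoblast gene Tpbpa was at 0 in all 4 libraries. Krt7, a trophoblast keratin that rose with 3.39, lost its call without EpiC replicate 2 or ESC replicate 1 at up to 0.213, and with the EpiC and ESC libraries alone.

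The culture contained serum but the labels name no feeder cells. Of 18 fibroblast genes, 14 were tested, 3 rose and 1 fell. Their summed levels were 307.9 and 253.3 TPM in EpiC and 667.3 and 558.3 TPM in ESC. Fn1, the member that fell, made up 37.8 and 34.3 TPM of these sums in EpiC and 461.2 and 433 TPM in ESC. Tagln, an actin-binding protein, rose to 134.4 and 72.4 TPM in EpiC, against 0.939 and 2.04 TPM in ESC (6.15 ± 0.94), and lost its call without ESC replicate 1 at 0.0619. Dcn (decorin) rose to 4.78 and 0.812 TPM in EpiC, against 0.0171 and 0.0165 TPM in ESC, and lost its call with the EpiC and ESC libraries alone and with limma on log2(TPM + 1). Mmp2 rose with 2.79 and lost its call without ESC replicate 1 at 0.0721. The defining collagens of fibroblasts were low, with Col1a1 at or below 1.26 TPM and Col3a1 at or below 0.27 TPM, and Postn and Lum were at or below 0.0462 TPM in all 4 libraries. Of 8 blood genes, 4 were tested and 0 were called (3 at an unadjusted p under 0.05, 1 called by DESeq2 and 1 by limma), 2 were at 0 in all 4 libraries, and the summed level of 5.23 and 16.9 TPM in EpiC and 21.4 and 45.3 TPM in ESC was mostly Cd68.

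De novo DNA methyltransferases rose, and an enzyme that starts demethylation fell. Of 19 genes, 2 rose and 1 fell, with a median log2 change of 0.03. Dnmt3a, a de novo methyltransferase, measured 134.3 and 65 TPM in EpiC, against 12.9 and 12.8 TPM in ESC (2.53 ± 0.48, adjusted p = 0.0123). Dnmt3b (chromosome 2, 153649450 to 153687730), the other catalytic enzyme, measured 458.1 and 81.1 TPM in EpiC and 46.3 and 28.1 TPM in ESC (2.90 ± 0.75, adjusted p = 0.0491). EpiC replicate 1 was more than 5 times EpiC replicate 2 for Dnmt3b, and both genes lost their calls without EpiC replicate 1 or either ESC library, at an adjusted p of up to 0.0798 for Dnmt3a and 0.432 for Dnmt3b, and with the EpiC and ESC libraries alone. The call of Dnmt3b was also lost with RLE factors, the default TMM reference, the filter over 8 libraries and limma on log2(TPM + 1). Their cofactor Dnmt3l measured 213 and 131.5 TPM in EpiC and 251 and 103.8 TPM in ESC, with overlapping groups, and was not called (−0.10). Tet2, which oxidises 5-methylcytosine, fell to 3.89 and 7.76 TPM in EpiC, against 61.8 and 93.8 TPM in ESC (−3.87 ± 0.42, adjusted p = 0.00146), and kept its call whichever library was left out. Zfp57, a zinc finger protein that guards methylated imprints, fell to 56.5 and 42.5 TPM in EpiC, against 436 and 472 TPM in ESC (−3.20, adjusted p = 0.00391).

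Imprinted genes rose more often than they fell. Of 30, 8 rose and 2 fell, with a median log2 change of 1.54, and their summed level was 3373 and 3044 TPM in EpiC and 1152 and 973.9 TPM in ESC. H19 (chromosome 7, 142575529 to 142578143), a noncoding RNA expressed from the maternal allele and the host of a microRNA, measured 514.7 and 1029.5 TPM in EpiC, against 4.75 and 5.92 TPM in ESC, with a log2 change of 7.25 ± 0.64 (adjusted p = 0.0011). Cdkn1c, a cell cycle inhibitor, averaged 22 ± 4.05 TPM in EpiC and 1.19 ± 0.225 TPM in ESC (SD, n = 2 each), without overlap (4.41 ± 0.57, adjusted p = 0.00269). Peg10, a gene derived from a retroelement, measured 133.5 and 173.3 TPM in EpiC and 18 and 15.1 TPM in ESC (3.18 ± 0.47, adjusted p = 0.00426). These 3 were higher in both EpiC libraries and were called whichever library was left out. Igf2, the neighbour of H19 expressed from the paternal allele, measured 14.1 and 20.4 TPM in EpiC and 2.48 and 2.28 TPM in ESC (2.84 ± 0.46), and lost its call without ESC replicate 2 at 0.0753. Phlda2, Nnat and Magel2 rose with 3.42, 4.39 and 5.08, with calls that were lost without 1 or another library, at up to 0.0916, and that of Magel2 also with the EpiC and ESC libraries alone. Plagl1, a zinc finger factor, fell to 12.6 and 18.6 TPM in EpiC, against 129 and 103.3 TPM in ESC (−2.98, adjusted p = 0.00336). These values are sums over both alleles.

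Some germline genes rose. Of 35, 34 were tested, 7 rose and 1 fell, with a median log2 change of 0.20. Mael, a piRNA pathway protein, measured 20.9 and 16.9 TPM in EpiC and 1.46 and 2.25 TPM in ESC (3.35 ± 0.43, adjusted p = 0.00269), and Tdrkh, a Tudor protein of the same pathway, had 15.5 and 10.1 TPM in EpiC and 1.32 and 1.57 TPM in ESC (3.21 ± 0.42, adjusted p = 0.0028). Both were called whichever library was left out. Ddx4 (Vasa), a germ cell helicase, measured 25 and 20.8 TPM in EpiC and 2.85 and 4.45 TPM in ESC (2.67, adjusted p = 0.01), and lost its call without ESC replicate 1 at 0.101. Rhox5, a homeobox gene on the X chromosome, measured 57.8 and 57.7 TPM in EpiC and 6.28 and 4.24 TPM in ESC (3.43), and lost its call without either ESC library at up to 0.0942. Tdrd12, another Tudor protein, fell with −2.01, a call lost without EpiC replicate 2 or either ESC library at up to 0.202, and with the EpiC and ESC libraries alone. Of 18 oocyte genes, 12 were tested, 1 rose and 4 fell, with a median log2 change of 0.41. Within both replicate numbers 6 were higher and 4 lower in EpiC. Bmp15, below the 1 TPM set for naming, fell with −7.76 (adjusted p = 0.0026). It was called whichever library was left out, but not with limma on log2(TPM + 1). Ooep (−3.05) and Zp3 (−2.94) also fell. Neither kept its call without EpiC replicate 2 or ESC replicate 1, at up to 0.132, or with the EpiC and ESC libraries alone. The summed oocyte list was 12.8 and 8.83 TPM in EpiC and 71.9 and 44.9 TPM in ESC. Ooep alone made up 8.48 and 3.08 TPM of these sums in EpiC and 59.4 and 34.3 TPM in ESC.

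**Figure D4:**
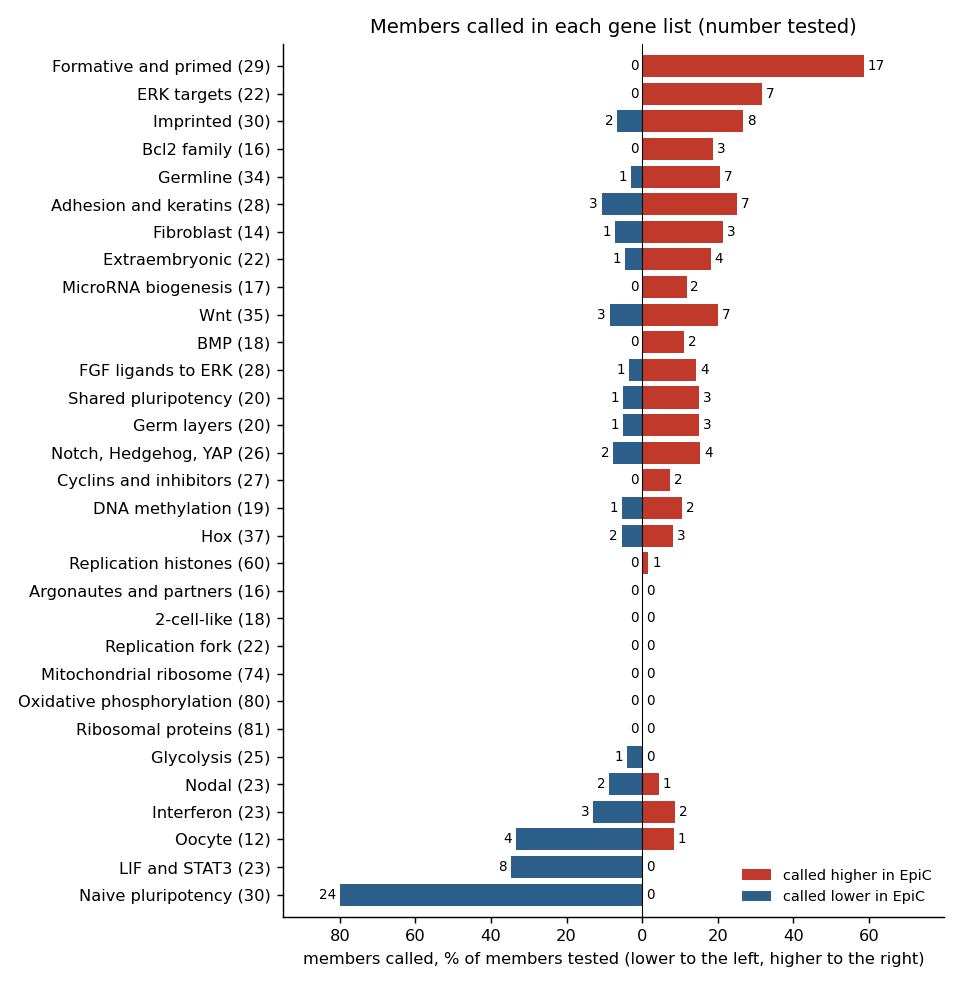
Share of the tested members of each gene list that were called higher (right) or lower (left) in EpiC, in percent, with the counts beside the bars. The naive list lies farthest to the left with 24 of 30 lower, and the formative list farthest to the right with 17 of 29 higher.

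In the microRNA machinery, the let-7 regulators Lin28a and Lin28b rose and no other gene was called. Of 17 microRNA biogenesis genes, 2 rose and 0 fell, with a median log2 change of 0.21, and of 16 genes of the silencing complex 0 were called, with a median of −0.15 (2 at an unadjusted p under 0.05, 2 called by DESeq2 and 3 by limma). Lin28a (chromosome 4, 134003330 to 134018841), the RNA-binding protein that blocks let-7 maturation, measured 372.7 and 220.3 TPM in EpiC, against 27.7 and 9.37 TPM in ESC, with a log2 change of 4.04 ± 0.69 (adjusted p = 0.00792). Its groups lay far apart, and the call was lost with the EpiC and ESC libraries alone. Lin28b, its paralogue, measured 28.6 and 17.6 TPM in EpiC and 2.99 and 5.02 TPM in ESC (2.56 ± 0.51, adjusted p = 0.0157), and was no longer called without EpiC replicate 1 or either ESC library, at up to 0.146. Ago2, the Argonaute that slices targets, measured 34.4 and 31.4 TPM in EpiC and 53.7 and 54 TPM in ESC and was not called (−0.72, adjusted p = 0.331). Dicer1, which cuts microRNA precursors, measured 24.8 and 21.4 TPM in EpiC and 16.9 and 16 TPM in ESC and was not called (0.47, adjusted p = 0.792). Of 13 tested genes listed as hosts of microRNAs, 1 rose and 2 fell. H19 rose as given above, and the lincRNA Mir124a-1hg fell with −3.15, a call lost without any 1 library. AU018091, annotated as protein-coding, fell to 15.9 and 13.6 TPM in EpiC, against 124.5 and 116.2 TPM in ESC (−3.04 ± 0.40, adjusted p = 0.00292). Its annotated span (chromosome 7, 3154658 to 3169203) does not contain the miR-290-295 hairpins, which lie at 3218626 to 3220841.

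Pluripotent mouse cells express a pair of microRNA loci with a shared seed, miR-290-295 in the naive and primed states and miR-302 from the primed state on. Mature sequences are shown with their seeds (bases 2 to 8) in capitals, because members of both loci share a seed; they are from RefSeq on GRCm38.p6, and the loci were chosen after their values were seen. The seed AAGUGCU was found in 5 of the available mature sequences of both loci. The sequences used held no entry for mmu-miR-302a-3p, which is therefore neither counted nor shown. The seed of mmu-miR-302c-3p is shifted by 1 base, and mmu-miR-367-3p has a seed of its own, AUUGCAC.

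mmu-miR-302b-3p: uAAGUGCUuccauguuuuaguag

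mmu-miR-302d-3p: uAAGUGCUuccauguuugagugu

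mmu-miR-302c-3p: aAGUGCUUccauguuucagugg

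mmu-miR-367-3p: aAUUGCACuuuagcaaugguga

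mmu-miR-291a-3p: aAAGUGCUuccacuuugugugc

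mmu-miR-294-3p: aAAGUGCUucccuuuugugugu

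mmu-miR-295-3p: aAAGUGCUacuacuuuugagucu

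The libraries did not measure mature microRNAs, only reads assigned to the annotated hairpins, which can come from the primary transcript. Over the 5 hairpins of the miR-302 locus, which includes mmu-miR-367 and lies within Larp7 on chromosome 3, the summed counts were 57 and 173 in EpiC, against 2 and 7 in ESC. Scaled to 100000000 counts per library these were 120.1 and 192.9 in EpiC and 3.98 and 4.93 in ESC. The single hairpins had log2 fold changes of 4.14 to 5.22, and none was called (adjusted p = 0.0906 to 0.166). All 5 were higher in both EpiC libraries, and their counts were too low for a firmer statement. The surrounding gene Larp7 had 74.1 and 48.3 TPM in EpiC and 97.6 and 69.4 TPM in ESC (−0.48, adjusted p = 0.779). Over the 9 hairpins of the miR-290-295 locus on chromosome 7, the summed counts were 27 and 124 in EpiC and 35 and 151 in ESC, or 56.9 and 138.3 per 100000000 counts in EpiC and 69.7 and 106.4 in ESC, with overlapping groups. At this depth a difference of that locus was not detectable.

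**Figure D5:**
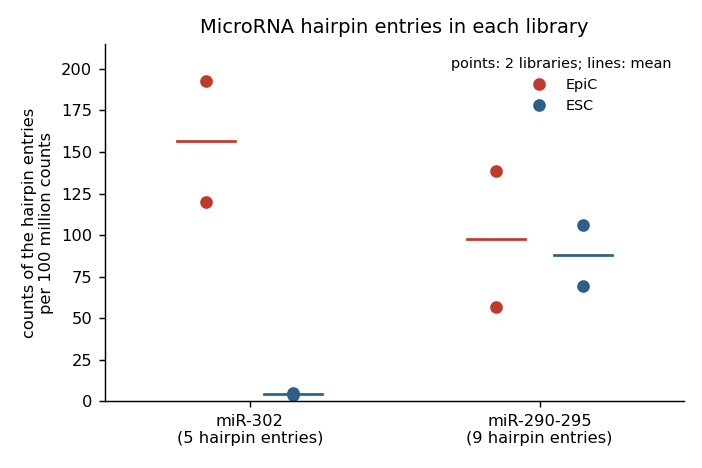
Summed counts over the hairpins of the miR-302 and miR-290-295 loci, per 100000000 counts of the library on a linear axis, with EpiC left of ESC, one point per library and a line at the mean. The miR-302 points lie at 120.1 and 192.9 in EpiC and at 3.98 and 4.93 in ESC, while those of miR-290-295 overlap.

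Housekeeping groups gave few calls, beside 3.14% of all genes tested called higher and 3.2% called lower. None of 81 cytosolic ribosomal protein genes, 74 mitochondrial ribosomal protein genes, 80 tested genes of oxidative phosphorylation or 12 mitochondrially encoded genes was called by edgeR, with medians of 0.03, −0.05, −0.20 and 0.02. At an unadjusted p under 0.05 there were 0, 0, 4 and 0 of them, DESeq2 called 0, 0, 2 and 0, and limma on log2(TPM + 1) called 0, 0, 3 and 0. Of the 80 oxidative phosphorylation genes, 51 were lower in EpiC within both replicate numbers and 9 higher. Of 25 glycolysis genes 0 rose and 1 fell, namely Pfkp, a phosphofructokinase, with 10.6 and 5.09 TPM in EpiC and 216 and 49.9 TPM in ESC (−4.21 ± 0.83, adjusted p = 0.0154). The ESC libraries differed more than 4-fold in Pfkp, and its call was lost without either EpiC library or ESC replicate 1, at up to 0.114, and with the EpiC and ESC libraries alone. Of 27 cell cycle genes 2 rose, Ccnd2 and Cdkn1c, both given above. Of 22 genes of the replication fork 0 were called, but 18 were lower within both replicate numbers and 0 higher, with a median of −0.38; 1 had an unadjusted p under 0.05, and DESeq2 and limma called 0.

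Most 2-cell-like genes and replication-dependent histones had higher values in EpiC, with 0 and 1 of them called. Of 18 tested genes of the 2-cell-like state, 0 were called, 15 were higher in EpiC within both replicate numbers and 2 lower, and the median log2 fold change was 1.83. Of them 12 had an unadjusted p under 0.05, DESeq2 called 10 and limma 3. Zscan4f, a marker of that rare state in stem cell cultures, measured 196 and 461.5 TPM in EpiC and 64.6 and 111 TPM in ESC (1.95, adjusted p = 0.0858), so its groups did not overlap but each replicate 2 was higher than its replicate 1. These genes form near-identical families, and the authors' estimates could split their reads in different ways. Of 60 tested replication-dependent histone genes, whose transcripts carry no poly(A) tail, 1 rose and 50 were higher within both replicate numbers, with a median of 1.15. Their summed level was 151.6 and 585.2 TPM in EpiC and 71.3 and 233.4 TPM in ESC. The sum was higher in replicate 2 than in replicate 1 in both groups, as the share of Gm42418 was, and the part of that difference in the result was not tested. Hist3h2ba, the member that rose, lost its call without any 1 library, at up to 0.218, and with the EpiC and ESC libraries alone.

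Among all protein-coding genes, several of the largest changes lay outside the pathways named so far. Vrtn, a gene first known for vertebral number in pigs, measured 38.3 and 13.5 TPM in EpiC, against 0.0584 and 0.011 TPM in ESC (9.89 ± 0.95, adjusted p = 0.00107). Car4, a membrane-bound carbonic anhydrase (chromosome 11, 84957786 to 84966044), measured 115.5 and 101.8 TPM in EpiC and 0.102 and 0.233 TPM in ESC (9.08 ± 0.76, adjusted p = 0.000646). Both were near 0 in ESC and abundant in EpiC. Cxcl12, a chemokine, measured 20.9 and 15.8 TPM in EpiC and 0.0739 and 0.103 TPM in ESC (7.99 ± 1.06). Epha1, an ephrin receptor, measured 29.9 and 25.8 TPM in EpiC and 0.096 and 0.268 TPM in ESC (7.32 ± 0.66), and Has2, which makes hyaluronan, measured 19.9 and 9.07 TPM in EpiC and 0.0617 and 0.181 TPM in ESC (6.90 ± 0.76). Enpp2 (autotaxin) differed between the EpiC libraries, at 31.5 and 3.98 TPM, but stood above ESC at 0.0571 and 0.0199 TPM in both (9.08 ± 1.22).

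The deepest falls included genes that were silent in EpiC. Cd3g, a subunit of the T cell receptor complex (chromosome 9, 44969572 to 44980431), had 0 counts in both EpiC libraries, against 1219 and 3874 counts in ESC, where it measured 43.6 and 55.3 TPM. Against a floor of 3 counts per library it was at least 537-fold lower in EpiC. Aqp3, a water and glycerol channel, measured 1.02 and 1.57 TPM in EpiC, against 199.3 and 161.6 TPM in ESC (−7.16 ± 0.50, adjusted p = 0.000434). Crxos, a homeobox gene, measured 0.125 and 0.0363 TPM in EpiC and 62.3 and 37.6 TPM in ESC (−9.52). Tcl1, a coactivator of AKT, measured 0.836 and 0.301 TPM in EpiC and 78.2 and 23.6 TPM in ESC (−6.61). Khdc3, a maternal effect protein, measured 0.145 and 0.181 TPM in EpiC and 18.8 and 13.4 TPM in ESC (−6.94). All of these were called whichever library was left out.

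Hox genes were called in both directions. Of 39, 37 were tested, 3 rose, 2 fell and 32 were not called. Over all genes tested, 3.14% were called higher and 3.2% lower. Within both replicate numbers, 16 Hox genes were higher and 17 lower in EpiC. Hoxb1, the anterior gene of its cluster, measured 3.76 and 12.2 TPM in EpiC, against 0 and 0.154 TPM in ESC (6.34 ± 1.21, adjusted p = 0.0127), a call lost with the EpiC and ESC libraries alone, and its neighbours Hoxb2 and Hoxb3 rose with 5.49 and 5.03. Hoxc12 fell to 0.0339 and 0.0296 TPM in EpiC, against 6.3 and 5.7 TPM in ESC (−7.50 ± 1.05, adjusted p = 0.00586), and Hoxd9 fell with −3.72. The calls of Hoxb2, Hoxb3 and Hoxd9 were lost without ESC replicate 1, at 0.0804, 0.0976 and 0.0926, and that of Hoxd9 also without EpiC replicate 1.

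Genes with no protein-coding transcript were called less often, 109 of 5708 (1.91%) against 1278 of 16142 protein-coding genes (7.92%). Of 1033 lincRNAs, 11 rose and 35 fell, and of 663 antisense genes 8 rose and 16 fell. Besides H19, the nuclear RNA Miat rose to 4.64 and 5.43 TPM in EpiC, against 0.208 and 0.306 TPM in ESC (4.58 ± 0.62, adjusted p = 0.00391). Among those that fell, 3 of the 5 with the lowest fold changes were at 0 counts in both EpiC libraries, at least 58-fold lower for Gm42429, at least 53.2-fold for Gm12209 and at least 37.4-fold for Gm28900, whose call was lost with the EpiC and ESC libraries alone.

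By chromosome, the median log2 fold change lay between −0.05 and 0.13. The shares of genes called higher were largest on the X chromosome, 47 of 804 (5.85%), and chromosome 18, 28 of 493 (5.68%), beside 3.14% over all genes. Xist, the RNA that silences an X chromosome, had a log2 change of 2.54 and was not called (adjusted p = 0.197). None of the 22 tested genes of the Y chromosome was called.

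Transcript choice within genes changed in few cases. Of 10540 genes tested for transcript usage, 10 passed a Simes adjusted p of 0.05 (0.0949%). Coil, coilin, the scaffold of Cajal bodies (chromosome 11, 88970252 to 88991613), changed its main transcript. Coil-201 held 90.9% and 84.7% of the gene's TPM in EpiC and 0% in both ESC libraries, while Coil-001 held 5.47% and 7.17% in EpiC, against 97.5% and 94.7% in ESC (adjusted p = 0.000257). The gene as a whole fell to 22.2 and 21.7 TPM in EpiC, against 98.5 and 137.2 TPM in ESC (−2.69, adjusted p = 0.00654). The usage call was lost without ESC replicate 2, at 0.0844. Rps6ka6 (RSK4), a kinase of the ERK pathway, used Rps6ka6-201 for 21.3% and 22% of its TPM in EpiC and for at most 0.00646% in ESC (adjusted p = 0.0157), a call lost without EpiC replicate 2 or either ESC library, at up to 0.367. The shares are the authors' estimates for transcripts that overlap, and their own error is not in the tables used. Dnmt3b, for which different transcripts are known in naive and formative cells, was not called for usage (adjusted p = 1).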

How the data were processed

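Total RNA was sequenced as stranded paired-end libraries, per the labels' protocols; the sources used here do not give whether poly(A) RNA was selected. The authors deposited estimated counts and TPM per transcript, made with kallisto 0.43 on mm10 per the submitters' processing notes. The deposited estimated counts were added up for each gene and rounded, and the deposited TPM were added up likewise and rescaled without Gm42418. Symbols came from the tables, and GRCm38 positions from GENCODE for 48058 genes.

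Counts were fitted with edgeR 4.0.16 (R 4.3.3; robust quasi-likelihood, TMM without Gm42418, filterByExpr on EpiC and ESC) over all 8 libraries with a group term and 4 residual degrees of freedom. Benjamini-Hochberg adjustment ran over all 21850 genes. The SE is the size of the log2 fold change divided by √F. Transcript usage was tested with edgeR's diffSpliceDGE and Simes p-values. Totals of 47463546 to 166400271 counts set the precision; estimated counts are not independent molecules. The gene-level test was also run on simulated counts, and the other steps were not.

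The genes and the 45 lists were chosen with earlier results of these data known, so a list's direction is no independent evidence. Named were a fixed set of pluripotency and signalling genes, up to 4 called genes per list and direction with at least 1 TPM, 15 protein-coding (at least 5 TPM) and 5 noncoding genes per direction with the largest changes, and 8 usage genes, of which 1 is not reported here. List members named beyond these, the genes given for marker checks and the microRNA loci were chosen after their values were seen. The 15 alternatives covered DESeq2 1.42.0, limma 3.58.1 on log2(TPM + 1), other factors and filters, a replicate block and leaving out each library.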

Additional observations from a re-analysis of the deposited data

How the results depend on the processing

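None of the 1387 calls changed direction under the 15 alternatives, but their number did. DESeq2 called 2888 genes (1490 higher, 1398 lower, 2884 at least 2-fold), the fit without a count filter 2335 (1223 higher, 1112 lower, 2335 at least 2-fold), and limma on log2(TPM + 1) 2757 (1273 higher, 1484 lower, 2148 at least 2-fold). The EpiC and ESC libraries alone gave 844 (362 higher, 844 at least 2-fold), with 2 residual degrees of freedom. Leaving out 1 library gave 405 to 856 calls, 145 to 525 higher and 260 to 504 lower, all at least 2-fold (405 to 856). With the replicate number as a block, 4624 genes were called (2341 higher, 2283 lower, 4318 at least 2-fold), among them all 1387. Of 174 single genes followed through the alternatives, 11 that were not called above were called with the block. The labels do not say that a number marks a shared culture. Over the 21850 genes the deviations of EpiC and ESC from their group means correlated at 0.74 within numbers. The other 6 alternatives gave 1377 to 1617 calls. All 15 alternatives called 256 of the 1387. Transcript usage gave 10 genes, 29 with the EpiC and ESC libraries alone, 34 with the replicate block, 16 with a mean of at least 10 counts per transcript, and 4 to 27 without 1 library. Among single genes that were not called, Pou5f1 lay between −0.729 and 0.143 without 1 library, positive without ESC replicate 1. Dnmt3l was 0.0513 with limma and 0.0386 with the replicate block, and −0.712 to 0.885 without 1 library. Axin2 was −0.0114 with the default TMM reference, −0.0205 without a filter and −0.00827 with the filter over 8 libraries, and −0.197 to 0.204 without 1 library. The cause of these differences was not tested, apart from the fewer libraries where some were left out. An unadjusted p under 0.05 was found for 3950 genes.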

Other observations

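Immune and redox genes outside the pathways of the report also differed. Of 23 tested interferon genes 2 rose and 3 fell. Oas1a, an antiviral enzyme, measured 0.391 and 0.103 TPM in EpiC, against 22.9 and 7.62 TPM in ESC (−6.03 ± 0.97, adjusted p = 0.00617), and was called whichever library was left out. Ifitm3, a membrane protein that limits virus entry, fell with −1.43 and Bst2 (tetherin) rose with 2.03, both lost without any 1 library, at an adjusted p of up to 0.306 and 0.222, and that of Ifitm3 also without a count filter, with the filter over 8 libraries and with the EpiC and ESC libraries alone. Gsto1, a glutathione transferase, measured 50.2 and 31.9 TPM in EpiC and 383.8 and 335.2 TPM in ESC (−3.15 ± 0.54, adjusted p = 0.00837). Mitf, a regulator of lysosomal and pigment genes, measured 0.258 and 1.03 TPM in EpiC and 16.2 and 13.9 TPM in ESC (−4.77 ± 0.64, adjusted p = 0.00303). Gsto1 and Mitf were both called whichever library was left out.

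Of 16 tested genes of the Bcl2 family and apoptosis 3 rose and 0 fell. Bcl2l11 (BIM) measured 22.9 and 29.9 TPM in EpiC and 6.42 and 8.87 TPM in ESC (1.87 ± 0.36, adjusted p = 0.0145), and Bcl2 measured 1.59 and 1.94 TPM in EpiC and 0.123 and 0.335 TPM in ESC (3.28 ± 0.67, adjusted p = 0.0172). Their calls and that of Bik were lost without EpiC replicate 2 or either ESC library, at an adjusted p of up to 0.2, and that of Bcl2 also without EpiC replicate 1; that of Bik was lost with the EpiC and ESC libraries alone.

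Macc1, chosen after its values were seen, had 160 and 367 counts in EpiC and 0 counts in ESC replicates 1 and 2, so that it was at least 81.2-fold higher in EpiC. Psmb8, an immunoproteasome subunit, was the one called gene of 39 proteasome genes, with 8.13 and 2.2 TPM in EpiC and 0.0479 and 0.131 TPM in ESC, a call lost without EpiC replicate 1 or either ESC library, at up to 0.203, and with the EpiC and ESC libraries alone.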
